A study of Mus musculus with 43 samples.

Results

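The 18S rRNA repeat copies are stretches of the mouse genome that resemble 18S ribosomal RNA and on which small RNA reads were counted separately, each under its own name beginning with rmsk_18S_. All RNAs with such a name were taken, which gave 35 copies among the 5364 RNAs listed over the 3 count tables. Of them, 33 were listed among the 4890 RNAs of tissue, 25 among the 3178 of epididymal fluid and 33 among the 4323 of sperm, and 25 copies were in all 3 tables. None of the 35 names was found in the gene and sequence tables used here, so that neither position nor length nor sequence is given for a copy.

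18S rRNA is the RNA of the small ribosomal subunit. It is cut from a long precursor that also holds 5.8S and 28S rRNA and that RNA polymerase I transcribes from tandem gene arrays, whereas 5S rRNA is made separately by RNA polymerase III. Besides these arrays, genomes carry scattered and often incomplete copies of rRNA, which repeat annotations list. Fragments of rRNA are abundant in small RNA libraries of sperm, and the epididymis is the duct in which sperm mature on their way from the caput (its proximal end) through the corpus to the cauda (its distal end, where they are stored).

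The libraries came from FVB mice 8 to 12 weeks old that were wild type (WT) or carried a CRISPR-Cas9 deletion of the locus that holds Rnase12, Rnase11, Rnase10 and Rnase9 (called KO here, Rnase9-12 KO in the labels), a line whose number of founders is not given in the sources used here. Each genotype had 3 libraries of caput tissue, 3 of cauda tissue, 3 of the fluid of each segment and 4 of cauda sperm, while corpus tissue had 3 for WT but 2 for KO, which made 43 libraries. Each fluid or sperm library pooled RNA of 3 mice, and the pooling of tissue is not stated, so that p-values cover the spread between these libraries. Tissue libraries were prepared by ARM-seq and the others by OTTR-seq, both small RNA methods, after a treatment with polynucleotide kinase that removes 3′ phosphates. The deleted genes were not counted in these tables, so the genotype labels could not be checked. The section entry in the labels reads Cauda for WT caput tissue replicate 3 and for all 6 caput fluid libraries, against their titles, and the titles were followed.

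A read whose best matches lay on rRNA sequences or repeats was counted on each of them that it matched equally well, and its matches elsewhere were dropped. The same read can therefore stand on several copies and on the 18S rRNA sequence, a count on a copy does not say that the copy was transcribed, and the copies are not independent of each other. Longer copies can also hold more reads, so that an order of copies by counts is not an order of abundance. A tissue library held 30142156 to 249732714 counts in total, a fluid library 1948718 to 12320922 and a sperm library 1134840 to 62128314. In tissue, 63.3% to 81.6% of them lay on repeats of 5S rRNA. Smooth muscle microRNAs (4 of the 6 listed) and epithelial microRNAs (5 of 5) were detected in each tissue group. A further list holds microRNAs of germ line and multiciliated cells and is called germ line here for short. This list (4 of 5 in sperm, 2 of 5 in tissue) summed to between 17.9 and 47.2 CPM in WT sperm against at most 0.462 CPM in tissue. In WT cauda fluid, from which sperm had been removed, it summed to 15.1 to 31.6 CPM. Here and throughout, CPM stands for counts per 1e6 counts after scaling by the TMM method, done separately for each material.

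The copies carried between 23260 and 1845358 counts in a tissue library, between 5768 and 55557 in a fluid library and between 67582 and 3316558 in a sperm library. In a tissue library 28 to 33 copies had at least 1 count, in fluid 20 to 25 and in sperm 30 to 33. A filter on low counts left 31 copies to test in tissue, whereas fluid kept 23 and sperm 30. The copies below the filter were rmsk_18S_429 and rmsk_18S_507 in tissue, rmsk_18S_216 and rmsk_18S_1253 in fluid, and rmsk_18S_138, rmsk_18S_675 and rmsk_18S_915 in sperm, none of which exceeded 17 counts in a library there. As a check for libraries deposited more than once, the counts over the copies were compared by chi-square in 46 pairs of replicate libraries, and each pair differed by more than that test allows. The test takes counts as independent, which counts shared between copies are not, and covers counting error only.

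The share of all counts on the copies was lowest in caput tissue and highest in sperm. In WT caput tissue it was 0.0280%, 0.0436% and 0.0913% in replicates 1 to 3 (mean 0.0543% ± 0.0330, SD, n = 3), in WT corpus tissue 0.0790%, 0.107% and 0.171% (0.119% ± 0.0473), and in WT cauda tissue 0.383%, 0.572% and 1.16% (0.706% ± 0.407). The cauda libraries stood above every caput and corpus library, while caput and corpus overlapped. In KO tissue the shares were 0.0382%, 0.0315% and 0.0583% in caput, 0.0474% and 0.0636% in corpus, and 0.350%, 0.490% and 0.927% in cauda. Both KO corpus libraries lay below the 3 WT corpus libraries, and KO and WT overlapped in caput and in cauda. Replicate 3 had the highest share in each of the 5 tissue groups that have one.

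In fluid the share was 0.210% ± 0.0369 in WT caput, 0.486% ± 0.0621 in WT corpus and 0.343% ± 0.127 in WT cauda (SD, n = 3 each). The KO means were 0.191% ± 0.0467 in caput, 0.352% ± 0.108 in corpus and 0.325% ± 0.0703 in cauda, and the KO libraries overlapped the WT libraries in all 3 segments. In sperm the 4 WT libraries stood at 4.49%, 8.85%, 5.96% and 5.11% (6.10% ± 1.93) and the 4 KO libraries at 7.14%, 5.44%, 5.34% and 4.78% (5.67% ± 1.02), again overlapping. The 3 tables were counted separately and the tissue libraries were prepared by another method, so the materials are set side by side without a test. The copies of 28S rRNA took 0.361% to 6.42% of counts in tissue, 0.329% to 1.18% in fluid and 32.6% to 41.5% in sperm.

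**Figure D1:**
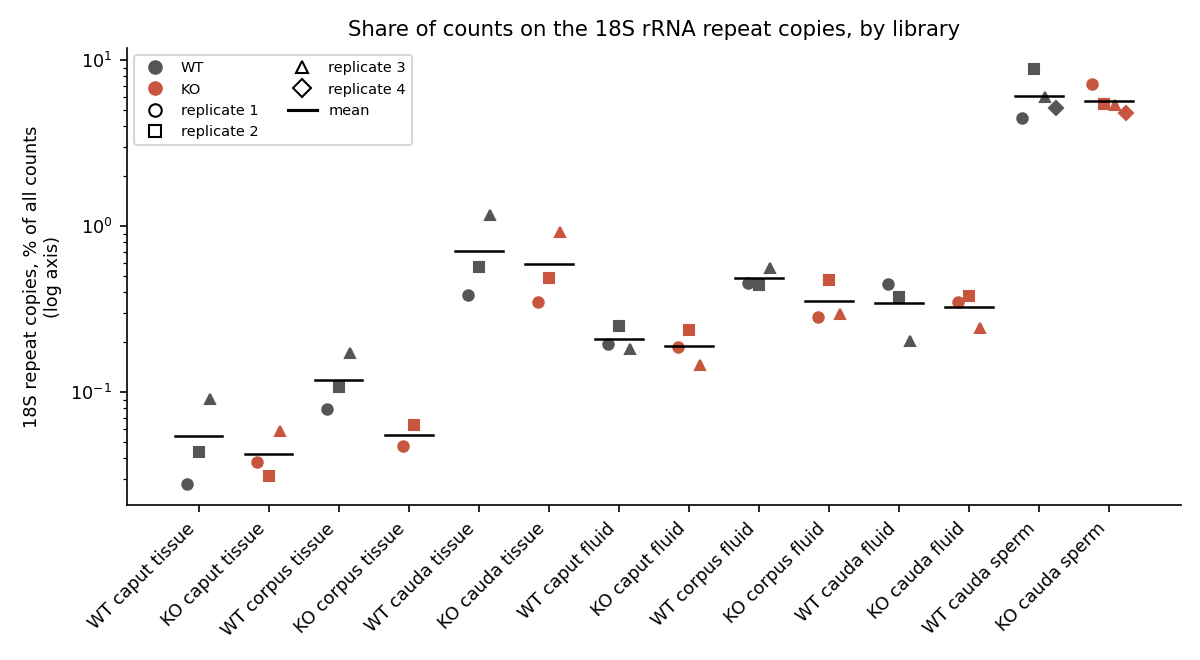
Share of all counts that lay on the 18S rRNA repeat copies (percent, log axis) in each of the 43 libraries, by group, with the group mean as a bar and the replicate number as the symbol. Cauda tissue (0.350% to 1.16%) stands above caput and corpus tissue, and the 8 sperm libraries (4.49% to 8.85%) above all others.

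Set against the 18S rRNA sequence itself, the copies together held 0.0534 to 0.399 counts per count on that sequence in tissue, 0.514 to 0.774 in fluid and 0.659 to 0.865 in sperm. The tissue ratios did not reach those of the other materials. KO libraries lay below WT libraries in caput fluid (0.612 ± 0.0146 against 0.672 ± 0.0149) and in corpus fluid (0.621 ± 0.0295 against 0.727 ± 0.0533), and overlapped them in cauda fluid, in sperm and in the tissue segments.

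A few copies held most of these counts. rmsk_18S_472 was the most counted copy in 12 of 17 tissue libraries, in all 18 fluid libraries and in all 8 sperm libraries. Its mean share of the copies' counts over WT libraries was 41.8% in tissue, 71.1% in fluid (n = 9 each) and 40.3% in sperm (n = 4). In tissue it was followed by rmsk_18S_0 (15.4%), rmsk_18S_628 (11.1%), rmsk_18S_343 (10.9%) and rmsk_18S_21 (9.16%). In fluid the next were rmsk_18S_628 (6.52%), rmsk_18S_386 (4.59%), rmsk_18S_21 (4.52%) and rmsk_18S_1041 (4.21%), and in sperm rmsk_18S_21 (10.9%), rmsk_18S_343 (8.04%), rmsk_18S_872 (7.83%) and rmsk_18S_125 (4.47%).

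The counts were spread over more copies in sperm than in the other materials. Reaching 90% of the copies' counts took 3 to 8 copies in a tissue library, 3 to 6 in a fluid library and 11 or 12 in a sperm library. The top copy alone took 38.1% to 42.0% in sperm, a narrow range beside 23.7% to 62.5% in tissue. At the other end, rmsk_18S_246 never exceeded 10 counts in a tissue library, although it reached 1203 counts in a sperm library.

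**Figure D2:**
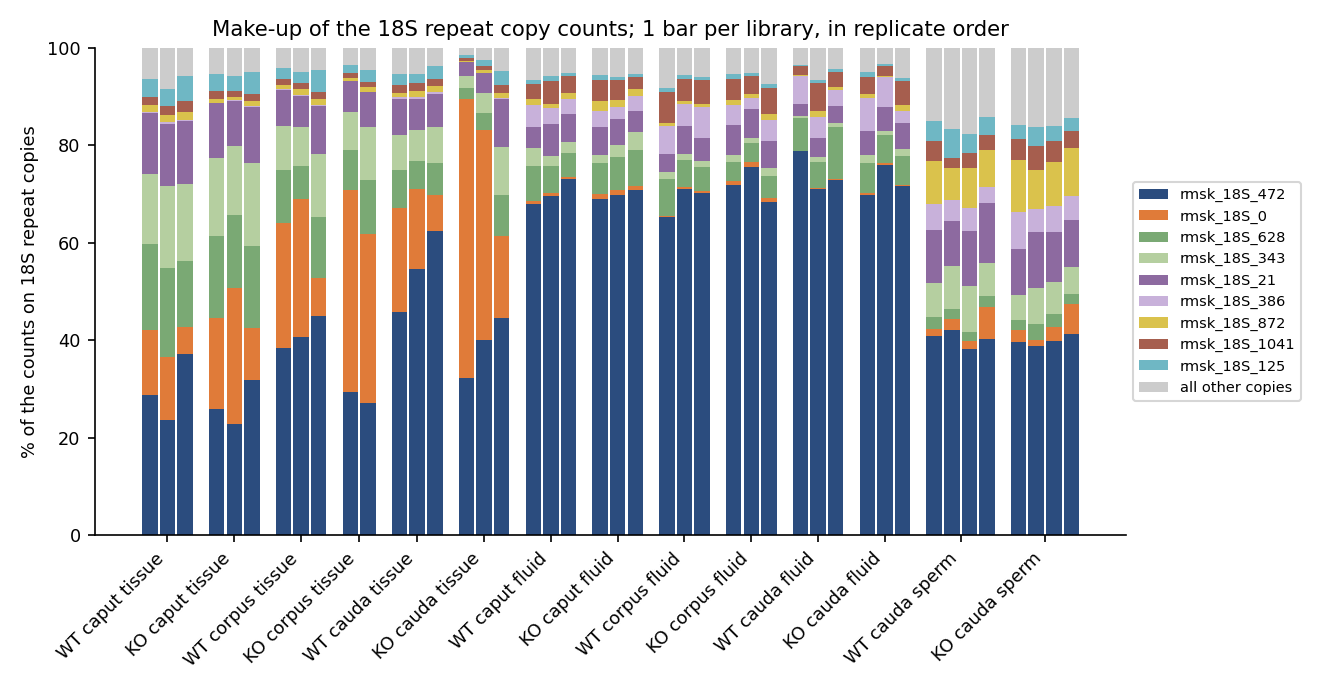
Make-up of the counts on the 18S rRNA repeat copies, as a percent of these counts, with 1 stacked bar per library in replicate order within each group. rmsk_18S_472 is the largest block in every fluid and sperm library, and rmsk_18S_0 the largest in 5 KO tissue libraries, up to 57.2% in KO cauda tissue replicate 1.

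The 5 tissue libraries in which another copy led were all KO libraries, and the copy was rmsk_18S_0 each time. It led in KO caput replicate 2, in both KO corpus libraries and in KO cauda replicates 1 and 2. Its share of the copies' counts was 57.2%, 43.1% and 17.0% in KO cauda tissue and 21.2%, 16.5% and 7.29% in WT cauda tissue, overlapping only through KO replicate 3. In corpus tissue both KO libraries (41.6% and 34.7%) exceeded the WT libraries (25.6%, 28.4% and 7.92%). In fluid its share stayed between 0.0828% and 1.10%.

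The first comparison asked how the copies differ between the ends of the epididymis. All 31 copies tested rose from caput to cauda tissue in WT mice and all 31 in KO mice, by edgeR's quasi-likelihood test. A call needed an adjusted p below 0.05 together with a log2 fold change past 1 or −1. Of all 3488 RNAs tested, 15.7% and 17.1% were called higher. rmsk_18S_1182 and rmsk_18S_246 had no count in WT caput tissue and passed the filter on low counts through other groups. They could not have been lower in WT cauda, and without them 29 of 29 copies were called in WT. Over the 31 copies the median log2 fold change was 3.62 in WT and 3.81 in KO (−0.05 and 0.03 over all RNAs tested). Every WT cauda library exceeded every WT caput library for all 31 copies, and for 30 of 31 in KO, whereas 19.3% and 19.2% of all RNAs did so.

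rmsk_18S_472 stood at 62.5, 70.8 and 235 CPM in WT caput tissue and at 1865, 4822 and 5010.5 in WT cauda tissue. The groups did not overlap, and the log2 fold change was 4.99 with a standard error (SE) of 0.56 (edgeR, adjusted p = 1.55e-05). rmsk_18S_0 went from 29.0, 38.5 and 35.7 CPM in WT caput to 863, 1458 and 584 in WT cauda, a log2 fold change of 4.82 (SE 0.53, edgeR adjusted p = 1.40e-05). In KO mice its values were 67.0, 79.2 and 41.9 CPM in caput and 3978, 3838 and 1497 in cauda, a log2 fold change of 5.63 (SE 0.55, edgeR adjusted p = 8.15e-06). For this copy, too, the segments stood apart in both genotypes.

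rmsk_18S_386 was a low copy in tissue, with a mean of 1.11 ± 0.485 CPM in WT caput and 28.8 ± 11.3 in WT cauda (log2 fold change 4.69, SE 0.54). rmsk_18S_830 went from 2.97 ± 0.989 to 36.7 ± 3.99 CPM (3.62, SE 0.42). In KO mice rmsk_18S_924 (log2 fold change 4.34, SE 0.55) and rmsk_18S_386 (4.24, SE 0.53) were next to the leading pair by p. Among the 29 copies without empty groups the log2 fold changes ran from 2.25 to 4.99 in WT, and the KO values from 2.47 to 5.63.

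A pair of copies had no count in any WT caput tissue library. rmsk_18S_1182 had 5, 18 and 42 counts in WT cauda tissue, which is at least 14.2-fold higher than the floor of 3 counts per library. rmsk_18S_246 had 3, 5 and 9 counts there, at least 4.52-fold higher than that floor. With both at these bounds the WT median was 3.53. In KO tissue rmsk_18S_246 rests on 1, 0 and 0 counts in caput and 0, 1 and 10 in cauda.

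The 18S and 28S rRNA sequences and the copies of 28S rRNA were higher in cauda tissue as well. In WT cauda against caput tissue the log2 fold change was 3.97 (SE 0.53) for the 18S rRNA sequence and 3.31 (SE 0.46) for the first of the 28S rRNA sequences, both called by edgeR, and 0.96 (SE 0.39) for 5.8S and 0.54 (SE 0.44) for 5S rRNA, which were not. Of the 165 repeats of 28S rRNA tested, 140 were called higher (median 3.51), and of the 510 repeats of 5S rRNA none was called higher and 72 lower (median −0.58). The smooth muscle microRNAs were also higher there, their summed level running from 20.6 to 40.3 CPM in WT caput and from 108 to 216 in WT cauda, and those of epithelium ran from 7.57 to 22.5 and from 8.67 to 15.7. Blood microRNAs (2 of 3 listed) summed to 0.0222 to 0.0366 CPM and 0.166 to 0.208, and leukocyte microRNAs (2 of 2) to 0.0122 to 0.0654 and 0.0664 to 0.161. In KO tissue the smooth muscle sums ran from 23.5 to 39.9 CPM in caput and from 108 to 141 in cauda. Those of blood ran from 0.0108 to 0.0318 and from 0.0659 to 0.240, and the caput sums of blood rest on few counts in both genotypes. The part of these cell types in the result was not tested, and in bulk tissue fewer cells of a type and less RNA per cell cannot be told apart. Leaving out 1 library at a time, including WT caput replicate 3 with its conflicting section entry, left 30 or 31 copies called in WT and 27 to 31 in KO. All 31 copies were higher in cauda under each scaling tried, with medians from 3.12 to 3.62 in WT and from 3.15 to 3.81 in KO, while the median of all RNAs went down to −0.46 and −0.73 where only library size was used.

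Relative to the 18S rRNA sequence, most of the copies did not separate the segments. Per 100 counts on that sequence, rmsk_18S_0 had 1.75 ± 0.280 counts in WT caput tissue and 3.06 ± 0.484 in WT cauda tissue, and 3.10 ± 0.799 and 6.73 ± 0.685 in KO, without overlap in either genotype. On this scale 3 of 31 copies were higher and 2 lower in WT cauda without overlap (1.06% and 86.2% of all RNAs), and 1 higher and 1 lower in KO cauda (0.315% and 90.1%). The other higher copies in WT were rmsk_18S_246 and rmsk_18S_1182, which had no count in caput.

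**Figure D3:**
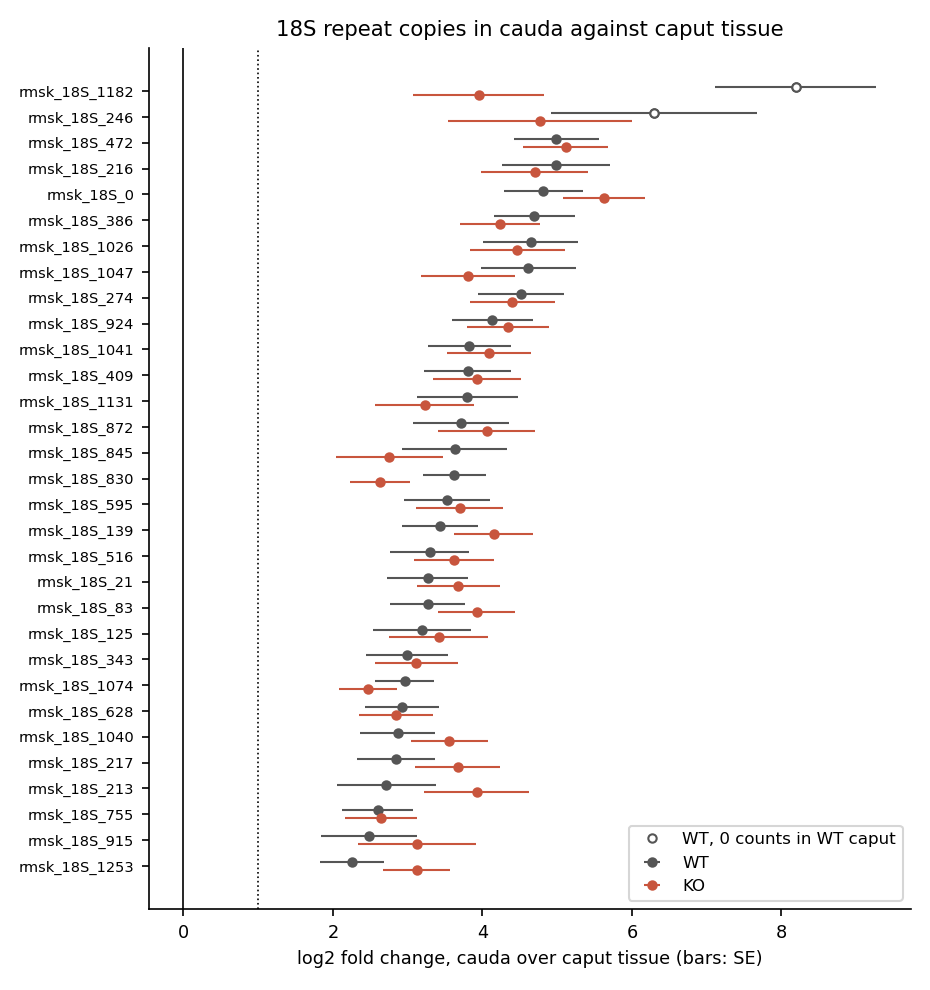
Log2 fold change of cauda over caput tissue for the 31 copies tested, in WT (grey) and KO (red), with SE bars, a solid line at 0 and a dotted line at the threshold of 1. All values lie above 2, and open circles mark the copies with no count in WT caput tissue, whose fitted value depends on the prior count and is no bound.

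In WT tissue 4 of 31 copies were called higher and none lower in corpus than in caput (9.00% and 2.81% of all RNAs), and 10 were higher without overlap (14.1%), with a median log2 fold change of 1.02 over the copies and 0.08 over all RNAs. rmsk_18S_0 was at 246.1, 318 and 97.4 CPM in corpus tissue, each above the caput values (log2 fold change 2.68, SE 0.48, edgeR adjusted p = 0.00204). rmsk_18S_472 was at 369, 454 and 553 CPM (1.90, SE 0.49, edgeR adjusted p = 0.0163), and rmsk_18S_1074 at 6.06 ± 0.745 against 2.25 ± 0.715 CPM (1.43, SE 0.37, edgeR adjusted p = 0.0170). The fourth, rmsk_18S_1182, had 1, 3 and 3 counts against none, for which no fold is given. The smooth muscle microRNAs summed to 44.2 to 87.8 CPM in WT corpus against 20.6 to 40.3 in WT caput. Those of blood summed to 0.0443 to 0.108 against 0.0222 to 0.0366, which rest on few counts. The part of both lists in the result was not tested.

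The number called between caput and corpus depended on the library set. With the replicate number as a block, 15 copies were called higher, and without replicate 3 of every tissue group 12, whereas leaving out WT caput tissue replicate 1 left 1, replicate 2 left 2 and replicate 3 raised the number to 7. rmsk_18S_0 was called for this pair of segments under each scaling, filter, test and set of libraries tried.

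The comparison of KO with WT asked how the deletion of Rnase9-12 bears on these fragments. In caput tissue none of the 31 copies was called by edgeR (0% of all RNAs in either direction), and 1 lower and 1 higher copy had an unadjusted p below 0.05 (0.659% and 0.315% of all RNAs). DESeq2 called none either. Their median log2 fold change was −0.43 (all RNAs 0.04), with 25 lower and 6 higher, of which 2 lower and 2 higher did not overlap (3.90% and 3.24%). The smallest p belonged to rmsk_18S_386, at 1.11 ± 0.485 CPM in WT and 0.476 ± 0.114 in KO (−1.22, SE 0.48, edgeR adjusted p = 0.9996).

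In corpus tissue, 29 of 31 copies had lower values in KO, at a median of −0.998 (log2 fold change) against −0.04 over all RNAs, and none was called by edgeR or DESeq2 (0% of all RNAs by edgeR). For 22 copies both KO libraries lay below all 3 WT libraries, which held for 15.2% of all RNAs, and for no copy was the reverse seen (11.8%). There were 7 lower copies and no higher one with an unadjusted p below 0.05 (7.22% and 0.774% of all RNAs). rmsk_18S_386 had the smallest p, with 2.01, 2.48 and 3.58 CPM in WT and 0.675 and 1.05 in KO (log2 fold change −1.64, SE 0.56, edgeR adjusted p = 0.460). rmsk_18S_472 stood at 369, 454 and 553 CPM in WT and at 182 and 181 in KO (−1.34, SE 0.56, edgeR adjusted p = 0.580).

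Other values moved with this difference. The 165 repeats of 28S rRNA had a median log2 fold change of −1.18 and the 510 repeats of 5S rRNA one of 0.28. Smooth muscle microRNAs summed to 44.2 to 87.8 CPM in WT corpus and 24.3 to 29.6 in KO corpus, and epithelial microRNAs to 16.3 to 25.9 and 10.5 to 10.7. Blood microRNAs summed to 0.0443 to 0.108 and 0.0111 to 0.0144. These blood sums rest on few counts, and 1 of the 2 blood microRNAs had none in KO corpus. Leukocyte microRNAs overlapped, at 0.0538 to 0.139 and 0.0431 to 0.0553. The part of these lists in the result was not tested. rmsk_18S_0 overlapped between the genotypes, with 246.1, 318 and 97.4 CPM in WT and 258 and 231 in KO (0.15, SE 0.50). Without rmsk_18S_1182 and rmsk_18S_246, which had no count in KO corpus tissue, the median over the other 29 was −0.99 and 27 were lower.

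In cauda tissue rmsk_18S_0 was higher in each KO library than in any WT library. Its levels were 863, 1458 and 584 CPM in WT (968 ± 446) and 3978, 3838 and 1497 in KO (3104 ± 1394), a log2 fold change of 1.68 (SE 0.46) that missed the threshold (edgeR adjusted p = 0.0994). Most copies had lower values in KO, 25 of 31 of them with TMM, at a median of −0.26 (all RNAs 0.12). With TMM factors from RNAs other than rRNA and tRNA 30 were lower, at a median of −0.59 (all RNAs −0.30). By library size only 29 were lower, at −0.53 (all RNAs −0.42). With TMM, edgeR called no copy (0.831% of all RNAs lower and 0.0287% higher). On that scale 3 lower and 1 higher had an unadjusted p below 0.05 (7.37% and 7.74%), and 3 were lower and 1 higher without overlap (10.1% and 6.91%).

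Replicates of the same number deviated together in cauda tissue, and with that number as a block 3 copies passed the test. These were rmsk_18S_0 (log2 fold change 1.65, SE 0.26, edgeR adjusted p = 7.01e-04), rmsk_18S_386 (−1.77, SE 0.30, edgeR adjusted p = 0.00106) and rmsk_18S_830 (−1.14, edgeR adjusted p = 0.0273). DESeq2 without a block called the same 3 copies. Without KO cauda replicate 3, rmsk_18S_0 (1.96, edgeR adjusted p = 0.0451) and rmsk_18S_386 (−2.24, edgeR adjusted p = 0.0358) passed. rmsk_18S_386 was at 16.5, 38.6 and 31.3 CPM in WT and at 3.76, 9.28 and 13.9 in KO without overlap, and rmsk_18S_830 at 36.7 ± 3.99 and 18.1 ± 8.68 CPM.

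Relative to the 18S rRNA sequence, rmsk_18S_0 separated the genotypes in both ends of the tissue. For every 100 counts on the 18S rRNA sequence it had 2.66, 3.60 and 2.91 counts in WT cauda tissue and 6.70, 7.43 and 6.06 in KO cauda tissue. In caput tissue it had 1.65, 2.07 and 1.53 in WT and 2.38, 3.96 and 2.96 in KO, again without overlap. The corpus groups overlapped, with 1.37, 4.80 and 2.03 in WT and 3.97 and 3.96 in KO. On this scale 1 of 31 copies was higher in KO without overlap in cauda tissue (2.15% of all RNAs) and 2 in caput tissue (1.12%). The other in caput tissue was rmsk_18S_1182, with at most 2 counts in a library. Lower without overlap were rmsk_18S_830 in cauda tissue, rmsk_18S_1253 in caput tissue and, without a count in KO, rmsk_18S_1182 in corpus tissue. The share of all RNAs lower in this way is not given. The 18S rRNA sequence itself had a log2 fold change of 0.55 (SE 0.47) between KO and WT in cauda tissue, which was not called.

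In caput and corpus fluid, separation towards higher KO ratios was more frequent among all RNAs than among the copies. The ratio of rmsk_18S_0 separated the genotypes there too. It was 0.380, 0.365 and 0.317 per 100 counts in WT caput fluid against 0.529, 0.659 and 0.519 in KO, and 0.103, 0.307 and 0.254 in WT corpus fluid against 0.587, 0.587 and 0.479 in KO. On this scale rmsk_18S_0 was the 1 copy of 23 higher in KO caput fluid without overlap (19.4% of all RNAs). In KO corpus fluid 3 of 23 copies were (25.9%), the others being rmsk_18S_83 with 1.06 ± 0.0738 against 0.443 ± 0.246 and rmsk_18S_872 with 0.666 ± 0.140 against 0.443 ± 0.0589. In cauda fluid it was 0.0590, 0.170 and 0.0743 in WT and 0.316, 0.264 and 0.109 in KO, with overlap, while 5 of the 23 copies were higher in KO without overlap (14.7%). The fluid ratios of rmsk_18S_0 rest on 26 to 287 counts of the copy per library. On the same scale 2 of 23 copies in caput fluid, 4 in corpus fluid and 1 in cauda fluid were lower in KO without overlap. For this direction, too, the share of all RNAs is not given.

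**Figure D4:**
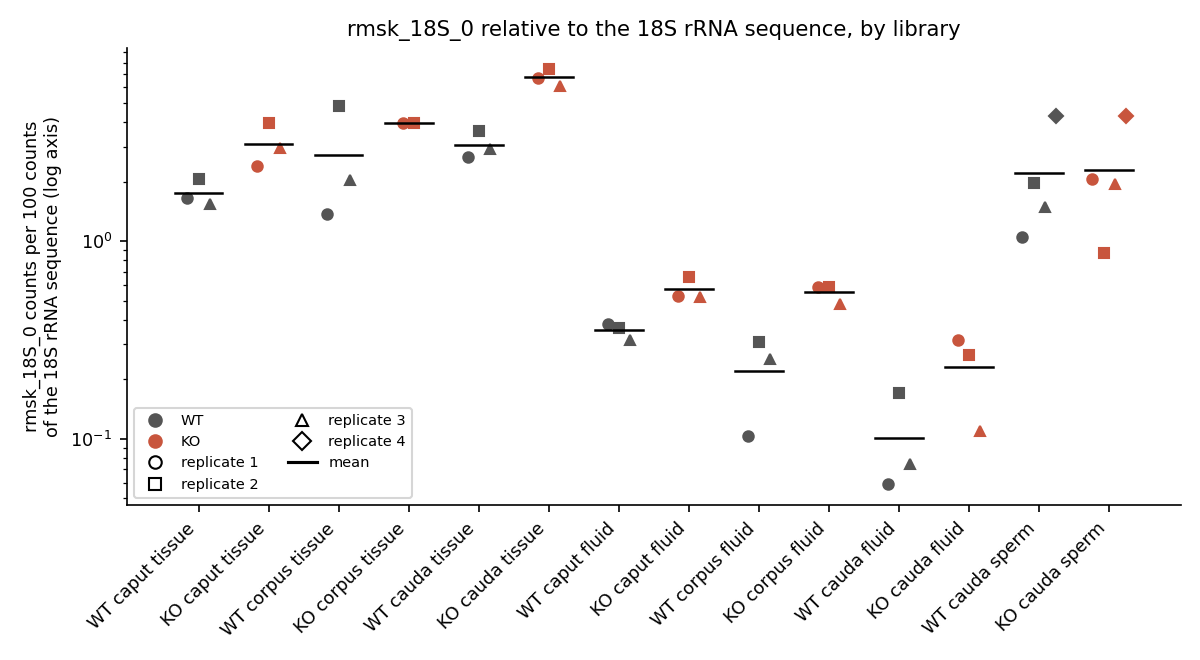
Counts on rmsk_18S_0 per 100 counts on the 18S rRNA sequence (log axis) in each of the 43 libraries, by group, with the group mean as a bar. KO libraries stand above WT libraries without overlap in caput tissue, cauda tissue, caput fluid and corpus fluid, and overlap them in corpus tissue, cauda fluid and sperm. Of all RNAs on this scale, 1.12% in caput tissue, 2.15% in cauda tissue, 19.4% in caput fluid and 25.9% in corpus fluid were higher in KO without overlap.

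rmsk_18S_0 had a higher fitted level in KO than in WT in all 7 KO comparisons, with log2 fold changes from 0.15 to 1.68. The edgeR fit of all libraries without a block called none of these. In cauda tissue, where same-numbered libraries deviated together, it was called with the number as a block (1.65, edgeR adjusted p = 7.01e-04). What the number marks is not stated. DESeq2 without a block also called it there, as did edgeR without KO cauda replicate 3. Of the 23 copies tested in all 7, rmsk_18S_0 was the one without a lower value. How many of all RNAs were higher in all 7 was not counted, and this copy was singled out after its values were seen. Of the others, 12 were lower in 6 comparisons, 3 in 5, 6 in 4 and 1 in 3. Scaled by library size only, it was −0.03 in corpus tissue and −0.03 in sperm, and positive in the other 5.

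**Figure D5:**
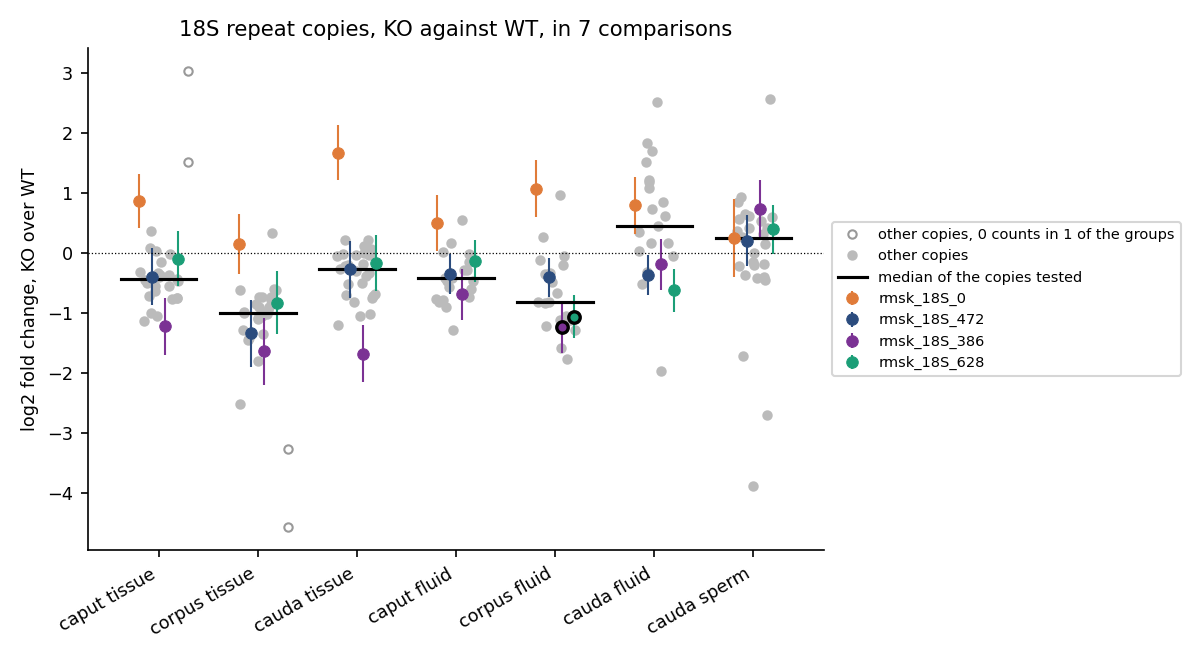
Log2 fold change of KO over WT for each copy tested in the 7 comparisons, with the median as a bar, 4 copies in colour with SE bars, called copies ringed in black, and open circles for copies with no count in 1 of the groups. rmsk_18S_0 lies above 0 in each comparison (on the TMM scale), and the ringed points are rmsk_18S_386 and rmsk_18S_628 in corpus fluid.

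In fluid the KO comparison gave calls in the corpus, where each KO library was shallower than each WT library. The KO libraries held 2474993, 3373869 and 1948718 counts in total and the WT libraries 6752462, 10172577 and 3989262. At least 10 counts were reached by 14, 17 and 13 copies in KO and 22, 22 and 20 in WT. The part of depth in the result was not tested. In this segment 2 of 23 copies were called lower, close to the share of all RNAs called lower (6.23%, with 13.5% higher). The median log2 fold change of the copies was −0.82 beside 0.10 over all RNAs, with 20 of 23 lower. rmsk_18S_628 stood at 350.0, 234 and 229 CPM in WT corpus fluid and at 107, 172 and 111 in KO (−1.06, SE 0.36, edgeR adjusted p = 0.0411). rmsk_18S_386 stood at 269, 189 and 289.5 CPM in WT and at 113, 105 and 100.3 in KO (−1.23, SE 0.43, edgeR adjusted p = 0.0467). The groups did not overlap for either copy, and 7 copies in all lay lower in KO without overlap and none higher (15.7% and 20.4% of all RNAs). With an unadjusted p below 0.05, 3 copies were lower and 1, rmsk_18S_0, was higher (12.1% and 21.7%).

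Both calls in corpus fluid lay close to the threshold. Scaling by library size only called neither copy, scaling by RNAs other than rRNA and tRNA called 15 copies lower, and both calls were lost without WT replicate 1, KO replicate 1 or KO replicate 3. That of rmsk_18S_386 was also lost without WT replicate 3 or KO replicate 2, and 3 copies were called without WT replicate 2. The median of the copies was −0.77 and −1.70 with these scalings, beside 0.12 and −0.78 over all RNAs. In KO corpus fluid the epithelial microRNAs summed to 87.5 to 134 CPM against 27.1 to 62.6 in WT, the germ line microRNAs (3 of 5 listed) to 12.8 to 15.4 against 3.58 to 9.06, and the leukocyte microRNAs to 16.8 to 70.0 against 12.99 to 17.5. Their part in the result was not tested.

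In caput fluid no copy was called by edgeR (0% of all RNAs) or DESeq2, and none had an unadjusted p under 0.05 (5.14% of all RNAs lower and 5.44% higher). The median was −0.42 (all RNAs 0.01), with 19 of 23 lower, and 4 lower but none higher without overlap (12.7% and 13.3%). Without WT caput replicate 2 the median was −0.078. The epithelial microRNAs summed to 241 to 298 CPM in KO caput fluid against 103 to 182 in WT, and those of leukocytes to 11.8 to 17.5 against 6.44 to 9.98, and their part in the result was not tested. The smallest p was that of rmsk_18S_1131, at 1.34 ± 0.223 CPM in WT and 0.545 ± 0.300 in KO (−1.29, SE 0.74, edgeR adjusted p = 0.614).

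In cauda fluid 16 of 23 copies had higher values in KO, with a median of 0.45 (all RNAs 0.09), and none was called by edgeR (0% of all RNAs). With an unadjusted p below 0.05, 1 copy was lower and 4 higher (2.82% and 6.48%), and 1 lower and 2 higher did not overlap (3.91% and 6.03%). rmsk_18S_213 stood at 82.96, 29.4 and 40.1 CPM in WT and at 10.7, 5.16 and 23.3 in KO without overlap (−1.97, SE 0.50, edgeR adjusted p = 0.173). rmsk_18S_1047 had 3, 6 and 3 counts in WT and 40, 33 and 3 in KO (2.53, SE 0.66, edgeR adjusted p = 0.173). DESeq2 called this pair, and so did edgeR without KO cauda replicate 3 (−2.72 and 2.85, both with an adjusted p of 0.0320). Without WT cauda replicate 2, edgeR called rmsk_18S_1026 and rmsk_18S_1040 higher instead.

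Between segments of fluid, copies moved in both directions. From caput to cauda in WT fluid 5 of 23 copies fell and 2 rose (15.4% and 9.69% of all RNAs), with a median of −0.89 (all RNAs −0.17), and 11 were lower and 4 higher without overlap (26.6% and 16.5%). rmsk_18S_213 rose from 8.92, 4.02 and 5.99 CPM to 82.96, 29.4 and 40.1 (3.002, SE 0.53, edgeR adjusted p = 5.12e-04), the groups standing apart. rmsk_18S_628 rose from 139 ± 23.9 to 282 ± 90.2 CPM (1.02, SE 0.36, edgeR adjusted p = 0.0394).

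The copies that fell were rmsk_18S_274, rmsk_18S_343, rmsk_18S_1026, rmsk_18S_1047 and rmsk_18S_1074. rmsk_18S_1026 went from 6.37 ± 1.28 to 1.23 ± 0.990 CPM (−2.31, SE 0.50, edgeR adjusted p = 0.00255) and rmsk_18S_1047 from 17, 6 and 24 counts to 3, 6 and 3 (−2.38, SE 0.67, edgeR adjusted p = 0.0136). Without single libraries the number called ran from 2 to 10, being 2 without WT caput replicate 1, WT caput replicate 3 or WT cauda replicate 1 and 3 without WT caput replicate 2. Per 100 counts on the 18S rRNA sequence, 15 copies were lower and 1 higher in cauda without overlap (44.6% and 5.09% of all RNAs), the higher one again being rmsk_18S_213. The germ line microRNAs summed to 1.996 to 3.50 CPM in WT caput fluid and 15.1 to 31.6 in WT cauda fluid, those of smooth muscle to 77.9 to 139 and 149 to 328, those of blood to 23.8 to 25.02 and 40.8 to 62.1, and those of leukocytes to 6.44 to 9.98 and 19.9 to 39.7. Their part in the result was not tested.

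In KO fluid the same pair of segments gave 1 call of 23 (11.5% of all RNAs higher and 14.5% lower), with a median of 0.48 (all RNAs −0.10). rmsk_18S_386 rose from 50.6, 54.0 and 55.8 CPM in caput to 182, 232 and 65.6 in cauda (1.58, SE 0.43, edgeR adjusted p = 0.0119), and the call was lost without KO cauda replicate 1 or 2. The germ line microRNAs summed to 3.20 to 4.33 CPM in KO caput fluid and 12.5 to 23.04 in KO cauda fluid and those of epithelium to 241 to 298 and 76.4 to 182, and their part in the result was not tested. rmsk_18S_213 had 10.3, 9.39 and 8.25 CPM in KO caput and 10.7, 5.16 and 23.3 in KO cauda fluid. The difference between its KO effects in cauda and caput fluid was −2.52 (SE 0.71) and that of rmsk_18S_1047 was 3.30 (SE 0.89), both with an edgeR adjusted p of 0.145. Without KO cauda replicate 3 both passed (−3.42 and 3.47, edgeR adjusted p = 0.0404).

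With all libraries, no copy passed the test of whether the KO effect differs between cauda and caput. In fluid 1 lower and 3 higher copies had an unadjusted p below 0.05 (3.91% and 7.02% of all RNAs), edgeR called 0% of all RNAs, and DESeq2 called rmsk_18S_213. In tissue 1 lower and no higher copy reached that level (3.67% and 2.38%), and neither tool called a copy. The copy was rmsk_18S_1182 (edgeR adjusted p = 0.735), which had no count in WT caput and 1, 1 and 2 counts in KO caput, so that its fitted difference depends on the prior count and is not given. For rmsk_18S_0 the difference in tissue was 0.81 (SE 0.64, edgeR adjusted p = 0.974).

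From caput to corpus in WT fluid 5 copies rose and none fell (8.21% and 9.54% of all RNAs), with 10 higher without overlap (16.8%) and a median of 0.52 beside −0.23 over all RNAs. rmsk_18S_213 rose from 6.31 ± 2.46 to 27.5 ± 8.75 CPM (2.11, SE 0.51, edgeR adjusted p = 0.00700) and rmsk_18S_386 from 85.9 ± 14.4 to 249 ± 53.4 (1.54, SE 0.43, edgeR adjusted p = 0.0169). rmsk_18S_924 (1.63, SE 0.47) and rmsk_18S_1041 (1.40, SE 0.41) rose as well, as did rmsk_18S_1040. The number fell to 1 without WT caput replicate 3 or WT corpus replicate 1, to 2 without WT caput replicate 1 or WT corpus replicate 3, and to 3 without WT caput replicate 2. The epithelial microRNAs summed to 103 to 182 CPM in WT caput fluid and 27.1 to 62.6 in WT corpus fluid, those of the germ line to 1.996 to 3.50 and 3.58 to 9.06, and those of leukocytes to 6.44 to 9.98 and 12.99 to 17.5. Their part in the result was not tested.

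In sperm no copy was called between the genotypes by edgeR (0% of all RNAs). Depth was uneven, with 52607365, 2899859, 1134840 and 3025269 counts in WT replicates 1 to 4. The KO replicates held 44325673, 42764979, 62128314 and 3618739, and the part of depth in the sperm results was not tested. The median of 30 copies was 0.26 (all RNAs −0.00), with 19 higher and 11 lower. With an unadjusted p below 0.05, there were 3 lower and 3 higher copies (9.48% and 8.02%), and 3 were higher but none lower without overlap (8.15% and 1.25%). Scaled by library size only, the median of the copies was −0.08 and 18 of 30 were lower, while the median of all RNAs was −0.31.

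rmsk_18S_139 stood at 24.1, 26.9, 19.0 and 18.1 CPM in WT sperm and at 249, 118, 91.5 and 63.8 in KO sperm. The genotypes did not overlap, and the log2 fold change of 2.57 (SE 0.50) missed the threshold after adjustment (edgeR adjusted p = 0.116). DESeq2 called it (2.38, adjusted p = 2.45e-04), and so did edgeR without WT replicate 4 (2.55, adjusted p = 0.00459). It took at most 0.242% of the copies' counts in a sperm library. In cauda tissue the same copy had 1.93, 3.59 and 2.13 CPM in WT and 0.791, 2.20 and 4.28 CPM in KO, with overlap.

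The 3 copies that were lower with an unadjusted p below 0.05 were rmsk_18S_246, rmsk_18S_1253 and rmsk_18S_1182. rmsk_18S_246 had 1.91, 469, 48.6 and 2.17 CPM in WT sperm against 3.09 to 21.6 in KO, and rmsk_18S_1253 had 15.5, 159, 176 and 9.04 against 12.5 to 17.3. WT replicates 2 and 3 were high for both, and the other WT libraries lay within or near the KO range. DESeq2, and edgeR without WT replicate 4, called both (edgeR −4.20 and −2.99, adjusted p = 0.0249 and 0.00468). rmsk_18S_1182 had 7.21, 121, 30.1 and 26.7 CPM in WT and 12.5 to 16.1 in KO.

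Both rmsk_18S_472 and rmsk_18S_0 overlapped between the genotypes in sperm. rmsk_18S_472 had 15127, 42090.1, 13619 and 22535 CPM in WT and 44509.7, 19017, 19899 and 24472 in KO. rmsk_18S_0 had 537, 2319, 612 and 3651 CPM in WT and 2783, 615, 1387 and 3674 in KO. Per 100 counts on the 18S rRNA sequence it was highest in replicate 4 of both genotypes, at 4.303 and 4.314, and between 0.869 and 2.05 in the other libraries.

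How alike the copies were was described by the correlation of their deviations from the group means, on the log2 CPM scale. Across 17 tissue libraries the median correlation of a copy with the other copies had a median of 0.83 over the 31 copies and was above 0.5 for 28 of them. rmsk_18S_21 and rmsk_18S_343 were the most alike pair (r = 0.99). rmsk_18S_0 stood apart, with a median r of −0.24 to the other copies and r = 0.73 to the 18S rRNA sequence, whereas 29 of 31 copies had a negative r with that sequence.

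In sperm the copies also varied together (8 libraries, median 0.77, above 0.5 for 27 of 30), and there 1 copy had a negative r with the 18S rRNA sequence. In fluid they did not (18 libraries, median 0.15, above 0.5 for none of 23), although rmsk_18S_472 followed the 18S rRNA sequence (r = 0.88). At least 10 counts were reached by 13 to 23 copies in a fluid library and by 29 to 32 in a sperm library. The part of counting error in the low fluid correlations was not tested. The copy most like rmsk_18S_0 was rmsk_18S_83 in fluid (r = 0.81) and rmsk_18S_595 in sperm (r = 0.87), and in tissue the highest r of any copy with it was 0.36 (rmsk_18S_1182). These values share reads between copies, libraries and scaling factors, and describe the libraries only.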

How the data were processed

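Per the labels and the study's methods, the authors trimmed reads with cutadapt, mapped them with bowtie2 in a modified tRAX pipeline to mm10, to which sequences of tRNAs and rRNAs had been added. Features were Ensembl genes, piRNAs, tRNAs, the rRNA sequences and the rRNA repeats of RepeatMasker. The deposited values are whole-number counts, not normalized. All best matches of a read were kept, except that reads best on tRNAs kept no other match and reads best on rRNA or repeats kept only matches there. Tool versions are not given in the sources used here.

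Each table was analysed on its own, all its groups in 1 edgeR 4.0.16 quasi-likelihood fit (R 4.3.3, TMM, filterByExpr with minimum count 10 and minimum total count 15). The Benjamini-Hochberg adjustment ran over every RNA tested (3488 in tissue, 2023 in fluid, 2480 in sperm), and a call needed an adjusted p below 0.05 with a log2 fold change past 1 or −1. The SE is the log2 fold change divided by the square root of its F value. The model was also run on simulated counts drawn independently for each RNA. The copies share reads, so that run does not bear on the calls reported here. Log2 CPM used a prior count of 2. DESeq2 1.42.0, other scalings and filters, fits of 2 groups, and left-out libraries were alternatives. The members and lists were chosen with earlier results of these data known.

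Named copies were those called in a comparison (the 4 with the smallest p where more than 4 were called), or the 1 with the smallest p where none was, and, for levels, the 5 with the largest mean share over WT libraries of a table. Others, such as rmsk_18S_246, or rmsk_18S_0, rmsk_18S_472 and rmsk_18S_830 in comparisons that did not name them, were chosen after their values were seen. Same-numbered libraries were taken as pairs where the deviations from the group means correlated above 0.1 in each of 3 pairs. This held for KO against WT in cauda tissue (r from 0.27 to 0.60) and for the tissue segments (cauda against caput, 0.31 to 0.63 in WT and 0.18 to 0.60 in KO, and corpus against caput in WT, 0.31 to 0.55), and for no other comparison. KO against WT in caput tissue, with r of 0.03, 0.52 and 0.72, fell short of the rule. The replicate numbers come from the sample titles, which do not say what a number marks.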

Additional observations from a re-analysis of the deposited data

Results flagged for a closer look

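In KO cauda sperm, 4 values of replicate 1 stood far from the other 3 libraries by Dixon's criterion. They were the levels of rmsk_18S_21 (10583.5 CPM against 5168 to 5715), rmsk_18S_343 (5847 CPM against 3259 to 3589) and rmsk_18S_125 (3264 CPM against 1579 to 1841), and the ratio of counts on the copies to counts on the 18S rRNA sequence (0.827 against 0.691 to 0.702). The criterion was applied to 40 sets of 4 libraries, and chance alone passes about 1 in 20. A read can be counted on several copies, and the copies are not independent of each other.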

How the results depend on the processing

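The rise from caput to cauda tissue kept between 26 and 32 called copies in each genotype under every alternative. No copy was called under any alternative between KO and WT in caput tissue, corpus tissue or caput fluid, or for the difference between KO effects in tissue. In the other tests the number called depended on the setting.

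With the replicate number as a block, 3 copies were called between KO and WT in cauda tissue against 0 without it. Between WT corpus and caput tissue 15 were called against 4. In KO against WT corpus fluid, where the libraries were not taken as pairs, 1 was called against 2. The block moved no other number of called copies by more than 1.5 times. DESeq2 called 3 copies in cauda tissue, 2 in cauda fluid, 1 for the difference between KO effects in fluid and 3 in sperm, all against 0. Scaling by library size only called 1 copy in WT corpus against caput tissue, 0 in corpus fluid, and 3 in WT cauda against caput fluid (7 with TMM). TMM factors from RNAs other than rRNA and tRNA called 2 copies in WT corpus against caput tissue, 15 in KO against WT corpus fluid, 10 in KO cauda against caput fluid (against 1) and 11 in WT corpus against caput fluid (against 5). Fits of the 2 groups alone called 1 copy in WT corpus against caput tissue and 3 in WT cauda against caput fluid.

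Leaving out 1 library at a time gave 0 to 2 called copies in cauda tissue, 1 to 7 in WT corpus against caput tissue, 0 to 3 in corpus fluid, 0 to 2 in cauda fluid, 2 to 10 in WT and 0 to 1 in KO cauda against caput fluid, 1 to 6 in WT corpus against caput fluid, 0 to 2 for the difference between KO effects in fluid and 0 to 3 in sperm. Without replicate 3 of every tissue group, an alternative chosen after seeing the data, 2 copies were called in cauda tissue and 12 in WT corpus against caput tissue, and the median difference between KO effects in tissue was −0.79 instead of 0.13.

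The median log2 fold change moved as follows. For KO against WT in corpus tissue it was −1.32 by library size only and −1.37 to −0.81 without single libraries. In caput fluid it was −0.24 by library size only, −0.67 by TMM without rRNA and tRNA, −0.21 with 2 groups alone and −0.47 to −0.078 without single libraries, and in corpus fluid −1.70 by TMM without rRNA and tRNA and −0.54 with 2 groups alone. For WT cauda against caput fluid it was −0.34 with 2 groups alone and −1.16 to −0.42 without single libraries, and for KO 1.01 by TMM without rRNA and tRNA. For WT corpus against caput fluid it was 0.79 by library size only, 1.06 by TMM without rRNA and tRNA, 0.74 without a filter, 0.74 by DESeq2 and 0.51 to 0.82 without single libraries. The difference between KO effects in fluid ran from 0.32 to 0.88 without single libraries.

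With 5S rRNA left out of the denominator, the mean share of counts was 0.298% in WT and 0.243% in KO caput tissue, 0.588% and 0.281% in corpus tissue, and 2.24% and 2.30% in cauda tissue. The most counted copy alone held 0.0174% in WT and 0.0124% in KO caput tissue, 0.0503% and 0.0209% in corpus tissue, 0.275% in KO cauda tissue, 0.147% in WT and 0.133% in KO caput fluid, 0.335% in WT corpus fluid, 0.236% in KO cauda fluid, and 2.47% in WT and 2.26% in KO sperm. Of the log2 fold changes of copies in the comparisons whose p-value named them, 365 kept their direction and their side of the threshold, 52 fell short of it, 9 passed it and 0 changed sign. Outside these, scaling by library size only moved rmsk_18S_0 between KO and WT from 0.15 to −0.03 in corpus tissue and from 0.25 to −0.03 in sperm, and rmsk_18S_472 from 0.21 to −0.13 in sperm. Apart from the settings' own construction, the cause of these shifts was not tested. Collapsing copies with identical counts changed nothing, as no such copies were found.

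With 2 to 4 libraries a group, small differences can go undetected. Counts on a copy can include reads shared with other copies, and summed counts exceed the number of reads by an unknown amount, so that no interval is given for a share.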
